A study of Mus musculus with 199 samples.

Results

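A set of 10 genes of the major histocompatibility complex (MHC) class I pathway were followed across a mouse small-cell lung cancer series, namely B2m, H2-K1, H2-D1, Tap1, Tap2, Tapbp, Psmb8, Psmb9, Psmb10 and Nlrc5. They were chosen by symbol, and all 10 were found among the 31581 genes of the deposited table. KP1, a small-cell lung cancer line with the genotype Rb1-/-Trp53-/-, was captured from cultured spheroids or from colonies that it formed in livers of nude mice, which are immunocompromised, or of F1 mice, which are immunocompetent. KP1 spheroids gave 28 libraries of 10 laser-captured cells each, nude liver colonies 33 and F1 liver colonies 31. RPC, an explanted pre-cancerous line with the genotype Rb1-/-Trp53-/-p130-/+Crebbp-/-, gave 24 libraries of 10 cells from spheroids. Pool-and-split controls, in which pooled material was divided into libraries of the same size, numbered 20 for KP1 spheroids, 35 for nude liver and 24 for F1 liver. Bulk spheroid libraries were made by another protocol, 1 each from the lines KP1 (Rb1-/-Trp53-/-), KP2 (Rb1-/-Trp53-/-Ptch1+/lacz), KP3 (Rb1-/-Trp53-/-Axin2+/lacz) and KP5 (Rb1-/-Trp53-/- BAT-GAL). KP1 and RPC are 1 line each, and the labels do not give the number, age or strain of the animals or the number of cultures, so each p-value measures the spread between captures only.

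Class I molecules carry peptides made inside the cell to its surface, where CD8 T cells read them. A heavy chain (here H2-K1 and H2-D1) pairs with the light chain B2m. Peptides are cut by the proteasome, whose catalytic subunits can be replaced by the immunoproteasome subunits Psmb8, Psmb9 and Psmb10. The transporter formed by Tap1 and Tap2 then moves them into the endoplasmic reticulum, where tapasin (Tapbp) helps to load them. Nlrc5 is a transactivator of class I genes, and interferon gamma is a known inducer of the whole set. Small-cell lung cancer is known for low class I expression.

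Total counts were between 1007999 and 7616756 in the libraries of 10 cells, between 1293394 and 5831210 in the pools and between 17266203 and 42447973 in the 4 bulk libraries. Levels are given as CPM, each gene's share of the gene counts of its library. Of the spheroid 10-cell libraries, 9 held at least 0.1% of spike-in counts and 19 held less, and 26 F1 libraries had a high and 5 a low level of the pseudogene Rpl19-ps11. The labels do not name these subsets, so each is treated as a batch of unknown origin. All 14 genes of a neuroendocrine list had counts in each 10-cell group. Markers of the host tissue moved with the groups. The summed CPM of 16 hepatocyte genes ran from 0 to 83.6 (median 1.11) in spheroids, where Alb, Apoa1 and 9 others were at 0 in every library. It ran from 33.4 to 4562.6 (median 906.0) in nude liver, from 0 to 2158.8 (median 199.5) in F1 liver and from 0 to 57.5 (median 4.97) in RPC. The summed CPM of 19 macrophage and dendritic genes had medians of 14.4 in spheroids, 55.2 in nude liver, 123.7 in F1 liver and 18.0 in RPC, and Cd74, H2-Aa and C1qa were at 0 in all spheroid captures. Other genes of that list had counts in cultured spheroids, with a sum of 61.9 CPM in spheroid capture 7. Host cells carry class I genes too, and in captures of several cells fewer cells of a type cannot be told apart from less RNA per cell.

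Of the 10 genes, 7 lie within 1.35 Mb of chromosome 17, on GRCm38 as the table gives it. Tapbp is at chr17:33915899-33929288, H2-K1 at chr17:33996017-34000333 on the minus strand, Psmb9 at chr17:34181988-34187764 on the minus strand, Tap1 at chr17:34187553-34197225, Psmb8 at chr17:34197721-34201454, Tap2 at chr17:34203527-34216321 and H2-D1 at chr17:35262730-35267499. B2m is at chr2:122147686-122153083, Nlrc5 at chr8:94434356-94527272 and Psmb10 at chr8:105935735-105938444 on the minus strand. All 10 are protein-coding. Psmb9 and Tap1 face away from each other and overlap by 212 bases in the table, and their RefSeq starts are 226 bases apart. The library kit does not mark strand, so reads in that overlap cannot be assigned by direction.

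The promoters of the light chain, of both heavy chains and of Tap1 are shown because the levels of these genes are described further on. They were read from RefSeq (GRCm38.p6), 5′ to 3′ on the strand of the gene, and each ends at the base before a RefSeq start. Capitals mark letters found by search on both strands. In the H2-K1 and H2-D1 windows these are, with letters read from H2-K1, a kappa B motif (GGGGATTCCCC), an interferon-response motif (AGTTTCACTTCT), TGACG, the core of the X2 box, and CCAAT, the Y box, which reads ATTGG on the other strand. In the B2m window they are a second form of the interferon-response motif (here GAAACTGAAA), a second kappa B form (here GGAAAGTCCC), TGACG and CCAAT, and in the Tap1 window TGACG and CCAAT. The X and Y boxes are the known binding platform of the complex that Nlrc5 joins.
H2-K1, chr17:34000334-34000513, minus strand: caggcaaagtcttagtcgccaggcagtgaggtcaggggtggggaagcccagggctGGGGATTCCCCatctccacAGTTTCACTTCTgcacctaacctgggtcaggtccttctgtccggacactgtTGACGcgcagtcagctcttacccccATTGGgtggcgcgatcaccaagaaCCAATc
H2-D1, chr17:35262914-35263093, plus strand: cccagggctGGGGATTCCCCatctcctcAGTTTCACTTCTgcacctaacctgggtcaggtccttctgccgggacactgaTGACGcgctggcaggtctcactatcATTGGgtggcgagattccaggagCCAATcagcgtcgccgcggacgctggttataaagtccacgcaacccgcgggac
B2m, chr2:122147507-122147686, plus strand: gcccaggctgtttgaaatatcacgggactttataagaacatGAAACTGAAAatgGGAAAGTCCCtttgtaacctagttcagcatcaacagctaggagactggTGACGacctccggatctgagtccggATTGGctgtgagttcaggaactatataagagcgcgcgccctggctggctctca
Tap1, chr17:34187331-34187555, plus strand, the whole stretch between the RefSeq starts of Psmb9 and Tap1: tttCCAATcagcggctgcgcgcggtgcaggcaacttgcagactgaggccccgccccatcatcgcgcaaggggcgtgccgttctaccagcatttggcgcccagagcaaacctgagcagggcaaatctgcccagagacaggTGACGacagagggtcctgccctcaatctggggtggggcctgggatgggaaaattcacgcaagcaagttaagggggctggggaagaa

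The 2 heavy-chain promoters share one layout. In both, 19 bases separate the starts of the kappa B and interferon-response motifs, 51 bases lie between the starts of the latter and of TGACG, and 25 between the starts of TGACG and of the following ATTGG. B2m has the same 25 bases between TGACG and ATTGG. Over the 100 bases from the kappa B motif on, H2-K1 and H2-D1 are identical at 89 positions (89.0%). GGGGATTCCCC is found in 10 of 32851 promoter windows of the RefSeq table (0.0304%) and AGTTTCACTTCT in 9 (0.0274%). With the bases that may vary left free, the second interferon-response form is found in 2.98%, the second kappa B form in 0.356%, TGACG in 17.8% and CCAAT in 33.8%. These are matches of letters and not measured sites.

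B2m, the light chain, was highest in KP1 spheroids and lowest in RPC among the 10-cell groups, by median. Its level ran from 0 to 110.4 CPM in spheroids (median 24.7), from 0 to 155 in nude liver (median 5.49), from 0 to 332 in F1 liver (median 6.02) and from 0 to 17.0 in RPC (median 0). The means were 30.9 ± 29.1 (SD, n = 28), 18.3 ± 34.6 (n = 33), 33.5 ± 68.1 (n = 31) and 3.42 ± 5.39 CPM (n = 24). The F1 mean exceeds its median by far because a few captures were very high, and the ranges of all 4 groups overlap. B2m had counts in 25 of 28 spheroid, 28 of 33 nude, 27 of 31 F1 and 11 of 24 RPC captures.

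H2-K1, a classical heavy chain, was counted in 28 of 28 spheroid, 30 of 33 nude, 30 of 31 F1 and 23 of 24 RPC captures. It ran from 0.471 to 222 CPM in spheroids (median 77.3), from 0 to 1952 in nude liver (median 32.5), from 0 to 975 in F1 liver (median 46.1) and from 0 to 353 in RPC (median 31.4). The highest liver captures lay above the spheroid range, while the lowest captures were at or near 0 in every group. A single nude capture, number 35, supplied the 1952 CPM and had B2m and H2-D1 at 0. H2-D1, the other classical heavy chain, had medians of 6.63 CPM in spheroids, 5.05 in nude liver, 7.72 in F1 liver and 10.7 in RPC. Its highest captures were at 105.8, 174.9, 502.5 and 213.3 CPM, so that the groups overlapped nearly throughout. Within spheroids, H2-D1 was at 4.31 ± 3.86 CPM in the 9 libraries with spike-in and at 27.8 ± 30.8 CPM in the 19 others. Counts of both heavy chains are uncertain where class I genes are alike: 8.79% of the 50-base words of H2-K1 and 14.3% of those of H2-D1 occur in other genes, in each case mostly in other H2 genes.

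Tap1 and Tap2 encode the peptide transporter, and both were sparse in captures. Tap1 had counts in 16 of 28 spheroid, 11 of 33 nude, 12 of 31 F1 and 3 of 24 RPC captures. Its highest levels were 201 CPM in spheroids, 92.2 in nude liver, 173 in F1 liver and 4.58 in RPC, with medians of 1.99 in spheroids and 0 in the other groups. Spheroids thus had the most captures with Tap1 and RPC the fewest. Tap2 was counted in 1 spheroid, 5 nude, 1 F1 and 0 RPC captures. A count of 0 over the 24 RPC libraries allows a mean of up to 0.0238 CPM, for counting error only. The highest Tap2 level, 84.6 CPM, was in nude capture 1, which was also the highest nude capture for its neighbours Psmb8 (488.5 CPM) and Psmb9 (1.99 CPM). In bulk KP1, made by another protocol, Tap2 was at 21.9 CPM, so its near absence from captures of the same line is not seen in bulk.

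Tapbp, or tapasin, bridges the heavy chain to the transporter. It ran from 0 to 45.2 CPM in spheroids (median 2.23), from 1.52 to 283 in nude liver (median 26.3), from 0.268 to 198 in F1 liver (median 9.94) and from 0.174 to 59.4 in RPC (median 6.35). The means were 8.21 ± 13.2 (SD, n = 28), 42.5 ± 54.2 (n = 33), 27.8 ± 43.9 (n = 31) and 13.0 ± 14.3 CPM (n = 24). Every liver and RPC capture had a count, whereas 24 of 28 spheroid captures did, and the ranges overlap. Of the 50-base words of Tapbp, 21.0% occur in other genes, 19.0% in Gm19412, and none of those in its last 500 bases.

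Psmb8, an immunoproteasome subunit, was present in most KP1 captures and in few RPC captures. It ran from 0 to 196 CPM in spheroids (median 21.9, 24 of 28 with counts) and from 0 to 488.5 in nude liver (median 17.1, 32 of 33). It ran from 0 to 1680 in F1 liver (median 8.87, 24 of 31) and from 0 to 60.5 in RPC (median 0, 9 of 24). The F1 value of 1680 CPM came from capture 4, whose other members were at 14.5 CPM (H2-K1), 0.545 CPM (Tapbp) or 0. Psmb10, also an immunoproteasome subunit, had medians of 15.5 CPM in spheroids, 41.8 in nude liver, 8.29 in F1 liver and 38.2 in RPC. It was counted in 27 of 28, 31 of 33, 19 of 31 and 24 of 24 captures, so F1 liver had the largest share of captures without it. Psmb9, the remaining inducible subunit, was counted in 2 spheroid, 4 nude, 4 F1 and 2 RPC captures, and reached 53.3 CPM in RPC capture 18 but no more than 2.95 CPM in KP1 captures. Psmb9 shares 12.5% of its 50-base words with Tap1.

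Nlrc5, the class I transactivator, was at 0 in all 28 spheroid captures and all 20 spheroid pools. The spheroid captures together allow a mean of up to 0.0241 CPM at 3 counts. Nlrc5 had counts in 6 of 33 nude captures, at most 6.75 CPM, in 1 of 31 F1 captures, at 98.9 CPM, and in 1 of 24 RPC captures, at 0.204 CPM. It also had counts in 2 of 35 nude pools, at most 0.524 CPM, and in 2 of 24 F1 pools, at most 29.3 CPM (pool 7, 100 counts). Median levels of the members other than Tap2 and Psmb9, and their spread over captures, are plotted by group.

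**Figure D1:**
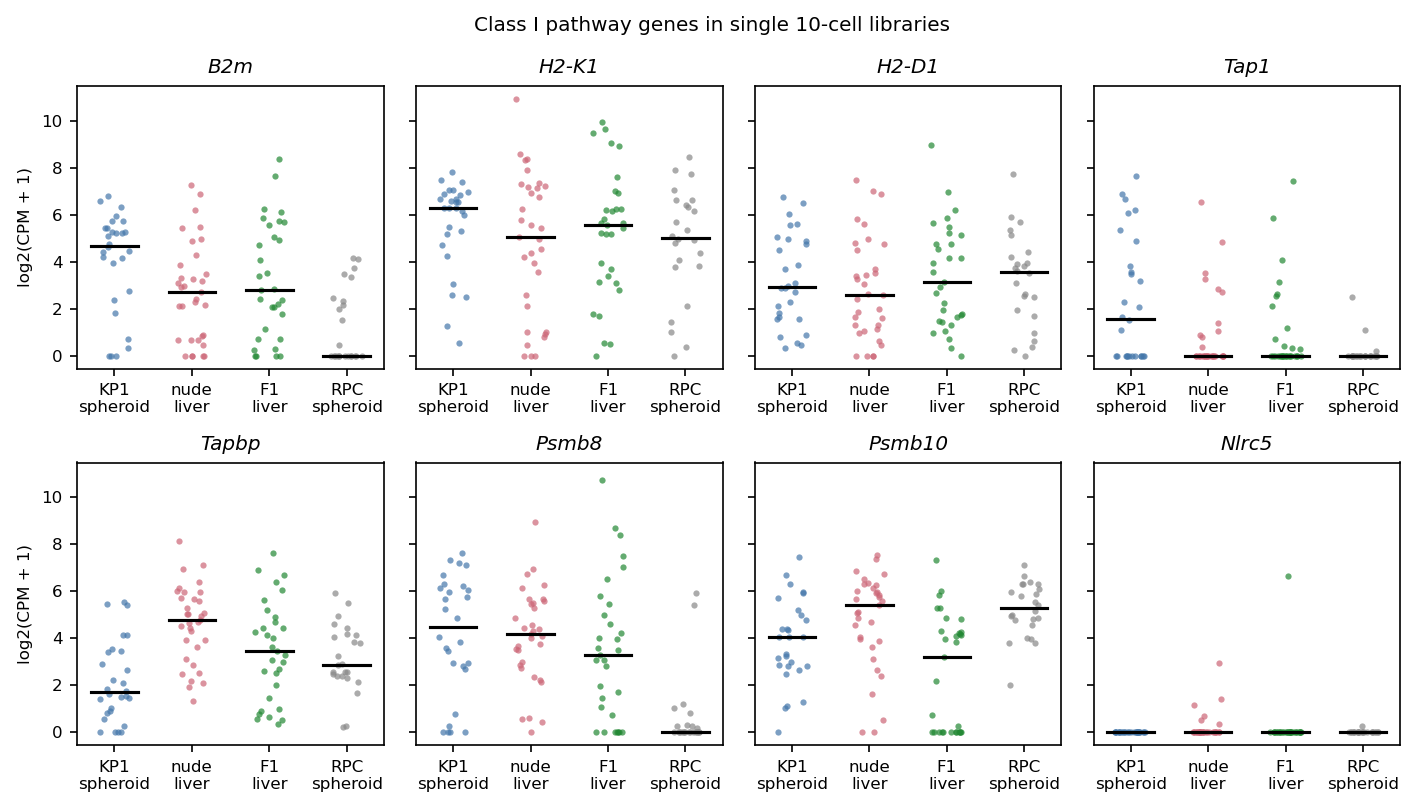
Each point is one 10-cell library and its level of the named gene as log2(CPM + 1), in KP1 spheroids (n = 28), nude liver (n = 33), F1 liver (n = 31) and RPC spheroids (n = 24), with the median as a bar. Tapbp medians are 2.23 CPM in spheroids and 26.3 CPM in nude liver, Psmb8 and B2m are at a median of 0 in RPC, and a single F1 capture stands at 98.9 CPM of Nlrc5.

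Growth in nude liver was compared with growth in culture to ask what the liver setting changes. Tapbp was higher in nude liver, and no other class I member passed the test. The edgeR quasi-likelihood test gave Tapbp a log2 fold change of 2.25 (SE 0.58, Benjamini-Hochberg adjusted p 0.00139). It was the only call among the 6 members with enough counts to be tested, where 34.1% of all 7834 tested genes were called. The other tested members had log2 fold changes of -0.97 (B2m, adjusted p 0.226), 0.76 (H2-K1, 0.324), -0.07 (H2-D1, 0.942), -0.65 (Psmb8, 0.417) and 0.48 (Psmb10, 0.495). With all libraries thinned to one depth, Tapbp was detected in 33 of 33 nude and 20 of 28 spheroid captures (Fisher's exact test, adjusted p 0.0129), the only call among 8 members tested against 14.4% of all genes. Without thinning this call was lost, at 33 of 33 against 24 of 28 (adjusted p 0.158, Fisher's exact test). Tap1 was detected in 8 of 33 against 15 of 28 (adjusted p 0.144). The Tapbp call was lost with the hepatocyte score as a covariate (1.87, adjusted p 0.42), with the leukocyte score (1.44, adjusted p 0.122) and against the 9 spheroid libraries with spike-in (1.62, adjusted p 0.126). The part of host cells in it was not tested beyond these fits.

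Of the other class I and class I-like chains, edgeR tested 5 and called 3, all higher in nude liver than in spheroids, where 34.1% of all genes were called, with a median log2 fold change of 1.52 against -0.04 over all tested genes. H2-Q4, a non-classical chain, ran from 0 to 7.08 CPM in spheroids (median 1.31) and from 0.356 to 448 in nude liver (median 19.4). Its log2 fold change was 5.15 (SE 0.65, adjusted p 1.29e-09). H2-Q7 rose by a log2 fold change of 4.42 (SE 0.66, adjusted p 1.03e-07), from a median of 0.36 to 10.8 CPM. Hfe, a class I-like regulator of iron uptake, rose by 1.52 (SE 0.49, adjusted p 0.0121). H2-T23 (1.41, adjusted p 0.109, edgeR) and Cd1d1 (0.28, adjusted p 0.781) did not pass. In the detection test 6 of the 11 chains tested were called higher, against 14.4% of all genes called, adding H2-Q10, H2-T24 and H2-Q6. The count was 4 with another seed for the thinning, 4 at a minimum of 2 counts and 2 without thinning, and H2-Q7 and H2-Q10 were called in each of these. H2-Q10 was detected in 15 of 33 nude and 0 of 28 spheroid captures (adjusted p 0.000614). It is known as a secreted product of hepatocytes, whose summed markers had medians of 906.0 and 1.11 CPM in these groups.

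Of 12 constitutive proteasome and activator genes tested, edgeR called 6 lower and none higher in nude liver than in spheroids, where 34.1% of all genes were called, with a median log2 fold change of -0.84, against -0.04 over all tested genes. Psma1, an alpha-ring subunit, fell by 1.5 on the log2 scale (SE 0.27, adjusted p 9.97e-06), from a median of 686 to 215.5 CPM. Psmb6 and Psmb7, the subunits that Psmb9 and Psmb10 replace, fell by 1.16 (SE 0.23, adjusted p 4.36e-05) and by 1.33 (SE 0.33, adjusted p 0.00103). Psmb5, which Psmb8 replaces, fell by 0.86 (SE 0.23, adjusted p 0.00203), and Pomp and Psma3 were the other calls. In peptide loading, 3 of 7 tested genes were called, and the median was -0.59. The chaperone Calr was higher (1.32, SE 0.26, adjusted p 2.74e-05), and the translocon subunits Sec61b and Sec61g fell by 2.46 (adjusted p 2.08e-09) and 1.23 (adjusted p 0.0113).

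Among 14 tested class I regulators in this comparison, 2 were called higher and 1 lower, against 34.1% of all genes called, and the list median was 0.25. Rfxank, a subunit of the RFX complex on the X box, was higher (3.16, SE 0.67, adjusted p 0.000107) and was detected in 32 of 33 against 8 of 28 captures. Nfyc, a subunit of the Y-box factor, was higher (1.02, SE 0.18, adjusted p 7.19e-06), and the acetyltransferase gene Ep300 fell by 1.71 (SE 0.53, adjusted p 0.00883). By detection, 1 of 20 regulators tested was called higher (Rfxank) and 2 lower, Ep300 and Rfxap, another RFX subunit (25 of 33 against 28 of 28, adjusted p 0.0429). Of 31 interferon-stimulated genes, edgeR could test 2 and called none. Of 24 with a detection test, Cd274, Ifitm3 and Gbp5 were detected more often in nude liver and Ifit2 and Igtp less often, against 14.4% of all genes called. Cd274, the checkpoint ligand, was detected in 14 of 33 nude and 2 of 28 spheroid captures (adjusted p 0.0251). At a minimum of 2 counts Cd274, Gbp5 and Igtp were not called, and Gbp5 was not called without thinning. Of the receptor genes, Ifngr2 was detected in 17 of 33 against 4 of 28 (adjusted p 0.0258). This call was lost with another seed for the thinning, at a minimum of 2 counts and without thinning. Jak1 fell by 1.27 in the edgeR test (SE 0.51, adjusted p 0.0456).

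F1 liver was compared with spheroids in the same way, sharing the spheroid libraries with the comparison above. Tapbp was again the only member called by edgeR of 6 tested (log2 fold change 2.04, SE 0.66, adjusted p 0.0312), where 12.6% of 7309 genes were called. H2-K1 had 1.22 (SE 0.55, adjusted p 0.139), Psmb8 1.56 (SE 0.81, 0.201), H2-D1 0.86 (SE 0.61, 0.378), B2m 0.04 (SE 0.65, 0.98) and Psmb10 -0.68 (SE 0.71, 0.586). The Tapbp value rested on few captures. Without F1 capture 9, at 198 CPM, it was 1.67 (adjusted p 0.0737), and with only the 5 F1 libraries of low Rpl19-ps11 it was 0.25 (adjusted p 0.947). With the hepatocyte score it was 1.07 (adjusted p 0.402). In the detection test none of the 7 members tested was called, against 4.84% of all genes. With another seed for the thinning, and without thinning, there were member calls, as counted further on. At an unadjusted p under 0.05, Fisher's exact test found Psmb10 in 18 of 31 F1 against 25 of 28 spheroid captures (adjusted p 0.108) and Tap1 in 8 of 31 against 15 of 28 (adjusted p 0.233), where 2532 of all 14242 genes tested had such an unadjusted p.

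Among the other chains, H2-Q4 (2.02, SE 0.47, adjusted p 0.00219) and Hfe (2.82, SE 0.71, adjusted p 0.00436) were higher in F1 liver than in spheroids, 2 of 3 tested, with a list median of 2.02 against 0.22 over all tested genes. Of all genes, 12.6% were called by edgeR here and 4.84% by detection. Hfe reached 397.6 CPM in its highest F1 capture, with a median of 4.13 and a mean of 20.7 CPM against 1.08 and 3.96 CPM in spheroids, and its call was lost with limma-trend, with the replicate block and where the spheroids were limited to spike-in libraries. H2-Q7 was detected in 20 of 31 against 5 of 28 captures (adjusted p 0.019). Of 12 constitutive proteasome genes, Psme1, an activator subunit, was higher (1.23, SE 0.41, adjusted p 0.0356), and in peptide loading Sec61a1 was higher (0.96, SE 0.32, adjusted p 0.0369) and Sec61b fell by 0.76 (SE 0.25, adjusted p 0.0331). Psme1 reached 3515 CPM in its highest F1 capture while its median, 163 CPM, was below the 182 CPM of spheroids. Nfyc was the 1 regulator called by edgeR of 12 tested (1.00, SE 0.19, adjusted p 0.000125). By detection 2 of 19 regulators were called, both lower in F1 liver: Suz12, a Polycomb subunit (21 of 31 against 28 of 28, adjusted p 0.0266), and Rfxap (22 of 31 against 28 of 28, adjusted p 0.0457). Spns1, of the peptide-loading list, was also detected less often (19 of 31 against 27 of 28, adjusted p 0.0331). Of the interferon-stimulated genes, Ifitm3 was detected in 10 of 31 F1 and 0 of 28 spheroid captures (adjusted p 0.0266) and Ifit2 in 3 of 31 against 17 of 28 (adjusted p 0.00506). With another seed for the thinning none of these 6 detection calls (H2-Q7, Suz12, Rfxap, Spns1, Ifitm3 and Ifit2) was made.

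F1 and nude liver were compared to ask what a competent immune system changes, and the hosts may differ in strain as well. Psmb8 was the only member called by edgeR among 6 tested, higher in F1 liver (log2 fold change 2.21, SE 0.73, adjusted p 0.025), where 19.2% of 7064 genes were called. Its median was nevertheless lower in F1 liver, 8.87 against 17.1 CPM, and its mean of 99.3 ± 309 CPM (SD, n = 31) rested on capture 4. Without that capture the value was 0.70 (adjusted p 0.503), and limma on log2(CPM + 1), which weighs captures alike, gave -0.59 (adjusted p 0.519). Where Rpl19-ps11 was low (5 F1 libraries), Psmb8 was at 2.02 ± 3.05 CPM and in the 26 others at 118 ± 335 CPM. Tapbp (-0.20, SE 0.52), H2-K1 (0.43, SE 0.66), H2-D1 (0.95, SE 0.64), B2m (1.04, SE 0.67) and Psmb10 (-1.15, SE 0.66) had adjusted p of 0.824, 0.695, 0.306, 0.29 and 0.226 (edgeR). None of 9 members was called by detection, against 5.77% of all genes. Fisher's exact test found Psmb10 in 18 of 31 F1 against 30 of 33 nude captures (adjusted p 0.0572) and Tapbp in 25 of 31 against 33 of 33 (adjusted p 0.107). Before thinning, Tapbp had counts in 31 of 31 and 33 of 33 captures, and Psmb10 in 19 of 31 and 31 of 33. Another seed and a minimum of 2 counts each called a member, as counted further on.

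Of 5 other class I and class I-like chains tested, edgeR called 2 lower in F1 than in nude liver, where 19.2% of all genes were called, with a list median of -0.63 against 0.26 over all tested genes. H2-Q4 fell by 3.08 on the log2 scale (SE 0.59, adjusted p 6.42e-05), from a median of 19.4 to 2.7 CPM, and H2-Q7 fell by 2.43 (SE 0.59, adjusted p 0.00157). H2-T23 (-0.63), H2-Q6 (-0.20) and Hfe (1.36) did not pass the edgeR test (adjusted p 0.551, 0.835 and 0.0708). Of 12 constitutive proteasome genes, Psmb6 (1.09, SE 0.25, adjusted p 0.000685), Psme1 (1.66, SE 0.43, adjusted p 0.00282) and Psma1 (1.12, SE 0.30, adjusted p 0.00505) were higher in F1 liver, and the list median was 0.63. In peptide loading, Sec61b was higher (1.72, SE 0.34, adjusted p 0.000114) and Calr fell by 0.94 (SE 0.26, adjusted p 0.00582). Tapbpl, a relative of tapasin that edits class I peptides, was detected in 6 of 31 F1 and 22 of 33 nude captures (adjusted p 0.0086). Rfxank was the 1 regulator called by detection of 20 tested (17 of 31 against 32 of 33, adjusted p 0.0044), where 5.77% of all genes were called. Its log2 fold change was -0.32 (adjusted p 0.746, edgeR). Neither Tapbpl nor Rfxank was called without thinning. Among 24 interferon-stimulated genes with a detection test, Cd274 (2 of 31 against 14 of 33, adjusted p 0.0286), Usp18 (3 of 31 against 15 of 33, adjusted p 0.041) and Ifi35 (11 of 31 against 25 of 33, adjusted p 0.0429) were detected less often in F1 liver, and none more often. With another seed for the thinning Usp18 and Ifi35 were not called, and at a minimum of 2 counts none of the 3 was. Over all genes, 833 of the 876 detection calls were lower in F1 liver and 43 higher. Summed hepatocyte markers also had a lower median in F1 liver, 199.5 against 906.0 CPM, and summed macrophage and dendritic markers a higher one, 123.7 against 55.2 CPM. Their part in these differences was not tested.

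RPC spheroids were compared with KP1 spheroids to set a pre-cancerous line beside a tumour line. B2m and Psmb8 were lower in RPC. B2m fell by 3.64 on the log2 scale (SE 0.80, adjusted p 0.000389, edgeR) and Psmb8 fell by 3.78 (SE 0.96, adjusted p 0.00215), the 2 calls among 6 members tested, where 21.9% of 8600 genes were called. H2-K1 (-0.48, SE 0.50), H2-D1 (-0.06, SE 0.60), Tapbp (0.54, SE 0.61) and Psmb10 (0.36, SE 0.48) had adjusted p of 0.541, 0.963, 0.582 and 0.643. At one depth, Psmb8 was detected in 4 of 24 RPC and 22 of 28 KP1 captures (Fisher's exact test, adjusted p 0.000707), Tap1 in 2 of 24 against 15 of 28 (adjusted p 0.0138) and B2m in 9 of 24 against 23 of 28 (adjusted p 0.0213). These were 3 calls among 8 members tested, against 10.3% of all genes. H2-K1 was detected in 22 of 24 against 27 of 28 captures (adjusted p 0.925). The heavy chains were thus at levels that the tests did not separate while the light chain was lower. B2m stayed called in all 12 other settings, with log2 fold changes from -5.17 to -2.78, and Psmb8 in the 11 that could test it, from -8.08 to -3.49. RPC and KP1 are 1 line each, so genotype and line cannot be told apart.

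Of 14 class I regulators tested, 1 was called higher and 4 lower in RPC than in KP1, where 21.9% of all genes were called, with a median log2 fold change of -0.75 against 0.01 over all tested genes. Nfyc fell by 3.91 (SE 0.26, adjusted p 4.42e-20). Its medians were 26.6 CPM in RPC and 349 CPM in KP1, and its ranges, 0.574 to 57.2 and 112 to 1155 CPM, did not overlap. Ep300 fell by 1.36 (SE 0.45, adjusted p 0.0221) and Crebbp fell by 1.27 (SE 0.46, adjusted p 0.0351). Crebbp, labelled as deleted in RPC, still had counts in all 24 RPC captures, with a median of 15.6 and a highest of 137.6 CPM against a median of 26.7 CPM in KP1, and the deleted stretch was not measured on its own. Creb1, a factor of the X2 box, was called lower (-1.99, SE 0.55, adjusted p 0.00524) although its medians were 29.2 and 28.8 CPM. Its highest KP1 capture had 1587 CPM, and the sign changed under 4 other settings, with log2 fold changes of 0.21, 0.03, 0.89 and 0.05. Rfxank was higher (2.03, SE 0.73, adjusted p 0.0363). The interferon gamma receptor subunit Ifngr2 was higher in RPC (2.91, SE 0.69, adjusted p 0.00117), and Ifnar1 was detected in 22 of 24 against 11 of 28 captures (adjusted p 0.00323). Of 12 proteasome genes, 4 were called higher (Psmb7, Psme3, Psma7 and Psmb6) and 2 lower (Psma1 and Pomp). In peptide loading, Sec61b, the 1 call of 7 tested, fell by 1.2 on the log2 scale (SE 0.22, adjusted p 1.86e-05). H2-Q4 was higher (2.59, SE 0.54, adjusted p 0.000181), 1 of 3 other chains tested. By detection, Hfe was found more often in RPC (22 of 24 against 15 of 28, adjusted p 0.0482) and Ifit2 less often (5 of 24 against 17 of 28, adjusted p 0.0495), and neither call was made with another seed for the thinning.

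**Figure D2:**
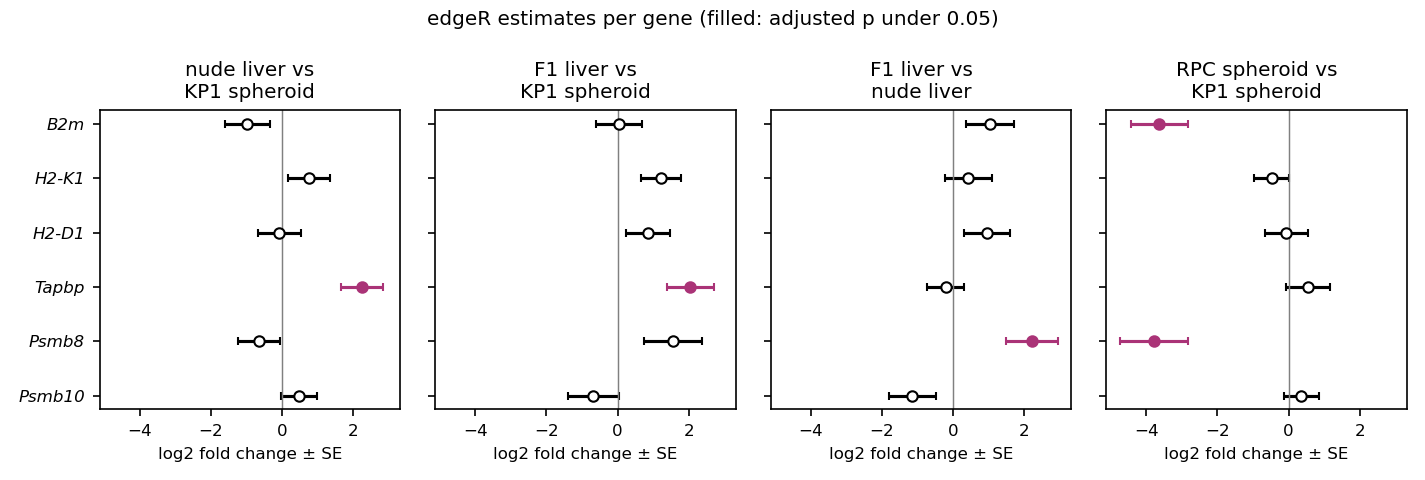
edgeR log2 fold changes with their standard errors for the 6 tested members in the 4 comparisons of 10-cell groups, with filled points where the adjusted p is under 0.05. Tapbp stands at 2.25 and 2.04 in the liver groups against spheroids, Psmb8 at 2.21 in F1 against nude liver, and B2m and Psmb8 at -3.64 and -3.78 in RPC.

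**Figure D3:**
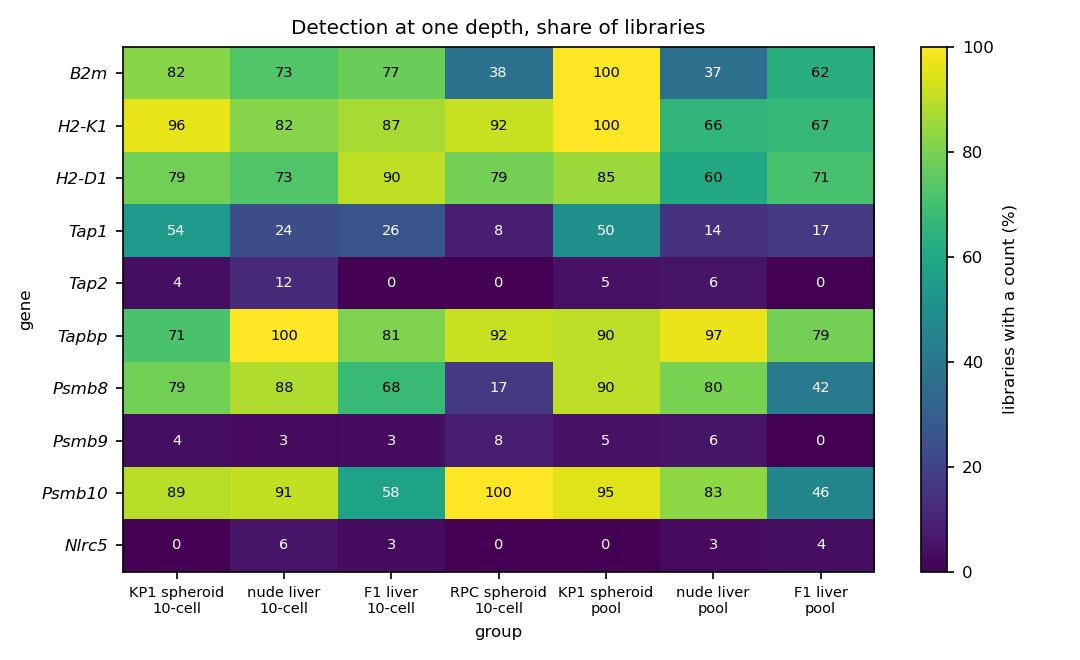
Share of libraries, in percent, in which each member had a count after every library was thinned to the same depth, for 4 groups of 10-cell libraries and 3 groups of pools. Tap2, Psmb9 and Nlrc5 are rarely detected in any group, and in RPC the shares are 37.5% for B2m, 8.33% for Tap1 and 16.7% for Psmb8.

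The pool-and-split controls show what the method yields from pooled material. In nude against spheroid pools, edgeR called 0 of 6 members tested, where 25.6% of 8010 genes were called. Tapbp had a log2 fold change of 1.02 (SE 0.58, adjusted p 0.197). Psmb10, with an unadjusted p of 0.0345, had 1.5 (SE 0.70, adjusted p 0.106). DESeq2 called Tapbp (1.61) and Psmb10 (1.96) higher. In contrast, limma-trend on log2(CPM + 1) called B2m (-2.71), H2-K1 (-2.42), H2-D1 (-1.62) and Psmb8 (-1.47) lower in nude pools and gave -0.02 for Psmb10, where its median over all genes was -1.06, and edgeR with a replicate block called B2m lower (-4.15), with a median of -0.86. On the same numbered libraries without the block B2m was at -0.52 (adjusted p 0.724, edgeR), and Psmb10 was the 1 call (1.72, adjusted p 0.0345). In F1 against spheroid pools 0 of 6 were called, where 11.6% of 7249 genes were, with Tapbp at 1.75 (SE 0.80, unadjusted p 0.0321, adjusted p 0.146), and DESeq2 called Tapbp higher (2.31) and B2m lower (-1.89). The main edgeR value of B2m was of the opposite sign, at 1.25 (SE 0.97, adjusted p 0.428). In F1 against nude pools, H2-D1 was the 1 call of 5 tested (2.59, SE 0.78, adjusted p 0.0208), where 12.0% of 6010 genes were called. It was at 1.75 (adjusted p 0.104) without F1 pool 22, which had 290 CPM. A single nude pool, number 36, had 1740 CPM of Tap1 while 29 of the 35 nude pools had none, and F1 pools ran from 0 to 1747 CPM of Psmb8 with 13 of 24 at 0.

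Spread between captures was compared with spread between pools, measuring how far each library's log2(CPM + 1) lay from its group's median, with a correction for group size. None of the 7 members tested was called by limma in any of the 3 KP1 groups. The shares of all genes called were 0.0% of 8602 genes in spheroids, 0.734% of 9397 in nude liver and 1.51% of 8759 in F1 liver. At an unadjusted p under 0.05, 2 members differed, both with less spread in captures. Psmb10 in nude liver had mean deviations of 1.56 in captures and 2.42 in pools (difference -0.86, SE 0.37, p 0.023, adjusted p 0.265 over all genes by limma). H2-K1 in F1 liver had 2.13 and 3.03 (difference -0.90, SE 0.44, p 0.0458, adjusted p 0.271, limma). In spheroids, Psmb8 had 2.21 in captures and 1.41 in pools (difference 0.80, SE 0.41, p 0.0579, adjusted p 0.83, limma). Over all genes tested, limma gave an unadjusted p under 0.05 for 510 of 8602 in spheroids, 1358 of 9397 in nude liver and 1556 of 8759 in F1 liver.

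Members were only weakly correlated by median. Over pairs of members with enough counts, the median Spearman correlation was 0.086 over 28 spheroid captures (21 pairs), 0.125 over 33 nude captures (15 pairs), 0.204 over 31 F1 captures (15 pairs) and 0.219 over 24 RPC captures (6 pairs), as a description over libraries that share depth differences. Single pairs ran from -0.311 to 0.576 in spheroids and from -0.129 to 0.417 in nude liver. They ran from -0.164 to 0.497 in F1 liver and from -0.183 to 0.315 in RPC. Some captures were high in several members at once. Nude capture 7 had the highest nude H2-D1 (174.9 CPM), with H2-K1 at 383.4, B2m at 116.5 and Tap1 at 27.6 CPM. It and F1 liver capture 11, with the genes named in them, were chosen after their values were seen. Capture 11 was the highest of the 31 F1 captures for 5 of the 10 members, where no other 10-cell library was highest in its group for more than 3. H2-K1 was at 975 CPM there, against a median of 44.4 CPM and a highest of 790 CPM in the 30 others. Tap1 was at 173 CPM against at most 57.3, Psmb10 at 162 CPM against at most 63.3 and Nlrc5 at 98.9 CPM (440 counts) against 0 in all 30 others. Tap2 had its only F1 count there. Tapbp (118 CPM) and H2-D1 (124 CPM) had rank 2 of 31, Psmb8 (333 CPM) rank 3 and B2m (51.0 CPM) rank 7.

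The same capture was the highest for 8 of 31 interferon-stimulated genes. Apart from the members, it was highest for at most 2 genes in any other list (2 of 16 hepatocyte genes). The share of all genes for which it was highest was not counted. Among the 8 was Cxcl9 (85.4 CPM, against at most 0.607 in the others), a chemokine that draws T cells. Tgtp2, an immunity-related GTPase, was at 135 CPM against at most 0.607, Gbp7, a guanylate-binding protein, at 62.7 against at most 51.0, and Iigp1 at 9.65 against at most 3.37. The rest of the 8 were low: Oas1a at 5.12 CPM against at most 4.17, Cxcl10 at 1.57 against 1.36, Igtp at 1.12 against 1.04 and Gbp2 at 0.225 against 0. Cd1d1, which presents lipids, was at 73.5 CPM against at most 69.4. Of the other interferon-stimulated genes, Ifi27 was at 3.15 CPM where the 30 other captures had a median of 74.4 CPM, and 14 of the 31 were at 0, most of which, such as Isg15 and Ifit1, also had a median of 0 in the others. Ifng was at 0, as in all other F1 captures. The summed hepatocyte markers of the capture were 1523.8 CPM and those of macrophage and dendritic cells 109.9 CPM, with 15 of 19 of the latter at 0, Cd74, H2-Ab1 and Ciita among them. Those 3 also had a median of 0 in the 30 others, where Ciita had counts in 1. Of the macrophage markers with counts, Csf1r was at 86.3 CPM (rank 2 of 31) and C1qb at 19.8 CPM (rank 6), and the leukocyte marker Ptprc was at 11.7 CPM (rank 2). Of the 20 T, NK and B cell markers, 13 were at 0 in this capture, and each of these also had a median of 0 in the 30 others. Cd3g had 3.15 CPM there and none in the 30 others, Trbc1 had 2.92 CPM (rank 3, with counts in 2 others) and Cd3d 0.674 CPM (rank 3). Whether other cells in the capture carried these transcripts was not tested. Without this capture the member calls in F1 liver were the same in number, 1 against spheroids and 1 against nude liver.

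**Figure D4:**
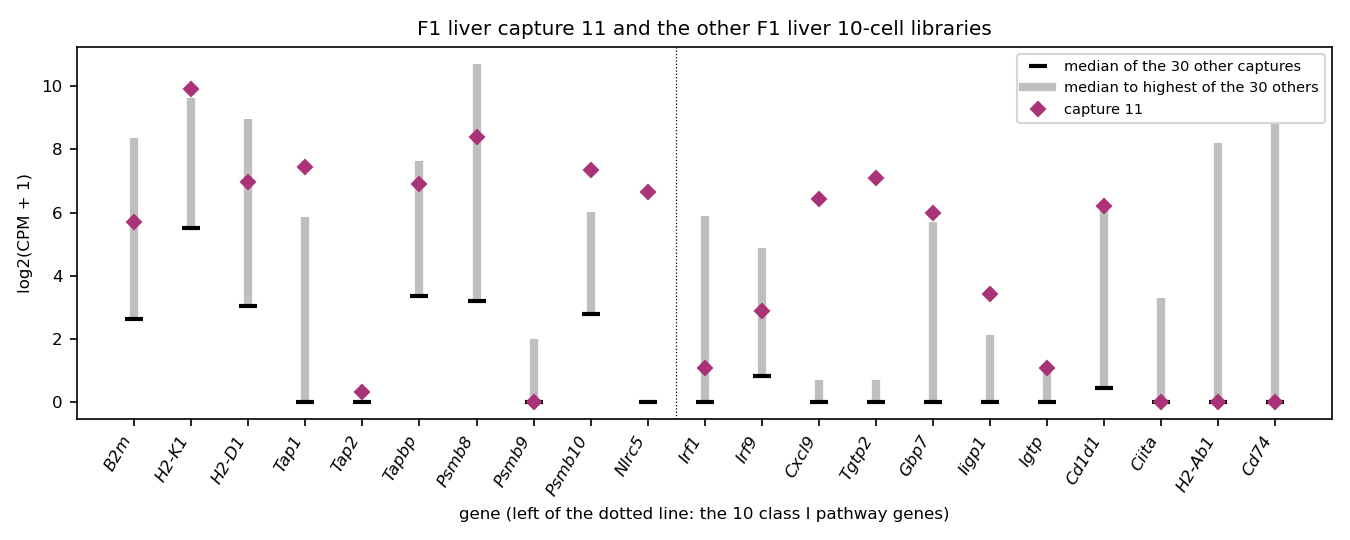
Level of each gene as log2(CPM + 1) in F1 liver capture 11 (diamonds), with the median (dash) and the span from median to highest (grey bar) of the 30 other F1 liver 10-cell libraries. Nlrc5, Tap1, Psmb10, Cxcl9 and Tgtp2 stand above every other F1 capture, while Ciita, H2-Ab1 and Cd74 of the class II pathway are at 0, as is their median in the others.

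Bulk spheroids of 4 tumour lines were compared by fold alone, since each line has 1 library. KP2 and KP5 lacked most of the transporter and Psmb8 transcripts that KP1 and KP3 had. Tap1 was at 15.1 CPM in KP1 (exact Clopper-Pearson 95% interval 13.3 to 17.0, counting error only) and 13.3 in KP3 (12.2 to 14.5), but at 0.236 in KP2 (0.113 to 0.433) and 0.276 in KP5 (0.114 to 0.519). Tap2 was at 21.9 CPM in KP1, 15.0 in KP3, 0.513 in KP2 and 0.0988 in KP5. Psmb8 was at 7.30 CPM in KP1, 9.27 in KP3 and 0.0942 in KP2, and had 0 counts in KP5, which at 3 counts allows up to 0.0988 CPM. Against KP1, Tap1 was thus 63.9-fold lower in KP2 and 54.5-fold lower in KP5, and Psmb8 was at least 73.8-fold lower in KP5.

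H2-K1 was low in KP2 alone, at 3.41 CPM (2.88 to 4.02), against 51.0 in KP1, 60.7 in KP3 and 46.6 in KP5. H2-D1 was at 20.6 CPM in KP2, 60.9 in KP5, 98.9 in KP1 and 131 in KP3. B2m, Tapbp and Psmb10 stayed within 2-fold of KP1 in all 3 lines, at 5.96 to 14.2, 11.0 to 25.8 and 4.28 to 6.17 CPM over the 4 lines. Psmb9 was at 2.14 CPM in KP3, 0.809 in KP1 and lower in the others, and Nlrc5 had 3, 0, 30 and 2 counts in KP1, KP2, KP3 and KP5. Of members at 1 CPM or more in either line, 5 of 8 were at least 4-fold apart between KP2 and KP1, all lower in KP2, where 11.3% of all such genes were that far apart. Between KP5 and KP1 it was 3 of 8, all lower, where 14.8% of genes were, and between KP3 and KP1 0 of 9, where 5.04% were.

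Among the other lists, 0 of 12 proteasome and 0 of 10 peptide-loading genes were 4-fold apart from KP1 in any of the 3 lines. Of the other class I chains, 4 of 9 were at least 4-fold lower in KP2 (H2-Q4, H2-M3, Fcgrt and Hfe) and 5 of 9 in KP5 (the same 4 and Cd1d1), and 1 of 10 was at least 4-fold higher in KP3 (H2-Q7, at 2.85 against 0.653 CPM). Of 20 regulators, Irf8 and Nfyc were that much lower in both, with Nfyc at 1338 CPM in KP1, 606 in KP3, 75.7 in KP2 and 65.6 in KP5. Jak1, the kinase of the interferon receptors, was at 271, 154, 59.6 and 67.4 CPM in KP1, KP3, KP2 and KP5. Of the interferon-stimulated genes, Igtp, Irgm2 and Cd274 were at least 4-fold lower in KP2 and in KP5, with 4 of 13 lower in KP2, where 11.3% of all genes were that far apart, and 6 of 14 in KP5, where 14.8% were. Ifitm3 was at least 4-fold higher in KP5, at 7.51 CPM against 0.174 CPM (3 counts) in KP1. With 1 library per line these folds have no replicate check, and line and genotype cannot be told apart.

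**Figure D5:**
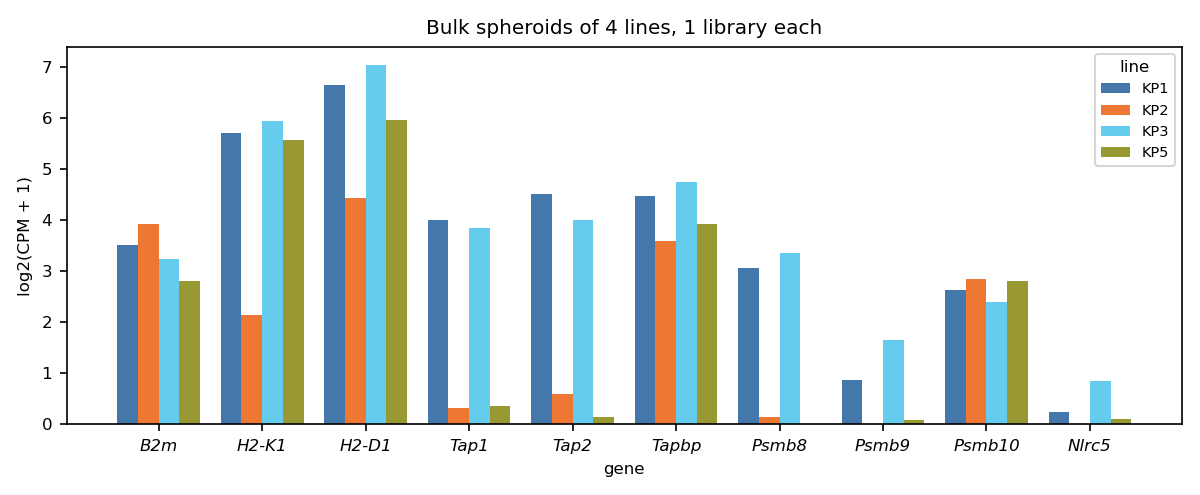
Bars give log2(CPM + 1) of each member in the single bulk library of KP1, KP2, KP3 and KP5. Tap1, Tap2 and Psmb8 are near 0 in KP2 and KP5, H2-K1 is low in KP2 at 3.41 CPM, and B2m, Tapbp and Psmb10 have counts in all 4 lines.

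The genes most like each chain were sought by Spearman correlation over all captures of 10 cells in the 4 groups among 7348 genes, as a description with group differences included. For B2m these were Scmh1 (0.566), Cer1 (0.526), Ppih (0.525) and Rragc (0.515), where the median over all genes was 0.087. For H2-K1 they were Gstm1 (0.486), Timm21 (0.478), Cenpn (0.449) and Uvrag (0.435), and for H2-D1 they were Ralgapa1 (0.508), Bcas2 (0.496), Mpzl1 (0.485) and Suclg2 (0.472), with medians over all genes of 0.103 and 0.159. No other member was among the 4 most like genes of any of these chains. Within single groups the leading correlations ranged widely, for example from 0.245 in RPC to 0.579 in nude liver for B2m and Scmh1.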

How the data were processed

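RNA was sequenced from laser-captured groups of 10 cells, pool-and-split controls and bulk spheroids. The authors deposited 1 table of estimated counts per gene; the submitters' processing notes name RSEM and Bowtie2 and the builds GRCm38 and GRCh38.p12, without roles. Of the deposited estimated counts, 89.3% were whole, and all were rounded for count tests. CPM was computed over 31581 genes, leaving out 92 spike-ins. Groups were compared with edgeR 4.0.16 (quasi-likelihood F test, TMM, filterByExpr, Benjamini-Hochberg over all tested genes), detection with Fisher's exact test after thinning each library to 718149 counts, and spread with limma 3.58.1 on log2(CPM + 1). DESeq2 1.42.0 was an alternative. The tests were tested on simulated data. Alternatives were other normalizations, filters, covariates, batches, a replicate block and left-out libraries. All 10 members are named, and list genes past an adjusted p of 0.05 in the edgeR or detection test, up to 6 per list and comparison by smallest adjusted p. Other list genes (those that did not pass, those of F1 capture 11 and those in bulk lines) were chosen after their values were seen. The members and lists were chosen with earlier results of these data known. Intervals and floors cover counting error only. Promoters came from RefSeq (GRCm38.p6), and those of Tap2 and Nlrc5 were not used here. Values of 1 gene of the regulator list are not reported here. Shared sequence was counted as 50-base words in GENCODE M21 transcripts.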

Additional observations from a re-analysis of the deposited data

How the results depend on the processing

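Among the members, the 10 called results gave 88 values under other settings, of which 66 kept direction and call, 18 lost the call and 4 reversed. The 4 reversed values are all of Psmb8 in F1 against nude liver: -0.59 with limma-trend, -0.88 with limma-voom, -4.08 with only the F1 libraries of low Rpl19-ps11 and -0.88 with a replicate block. Among the pathway genes named, the 75 called results gave 648 such values, of which 509 kept direction and call, 135 lost the call and 4 reversed. These 4 are of Creb1 in RPC, which went to 0.21 (limma-trend), 0.03 (voom), 0.89 (spheroids with spike-in only) and 0.05 (replicate block). The 84 uncalled member results gave 520 values, of which 489 stayed uncalled, 25 gained a call in the same direction and 6 in the other. In F1 against spheroid pools, where no member was called, DESeq2 gave B2m -1.89, limma-trend gave B2m -2.07, H2-K1 -1.94, Psmb10 -1.72 and Psmb8 -2.70, and the replicate block gave Psmb8 -4.81. The direction turned, since the main edgeR values were 1.25 (B2m), 0.87 (H2-K1), 1.14 (Psmb10) and 1.79 (Psmb8). Medians over all genes were 0.56 with DESeq2, -1.46 with limma-trend and -1.64 with the block. Labels share replicate numbers but nothing says that they pair samples, and at most 1 pair per comparison correlated above 0.1. With the replicate block, members called went from 1 to 2 (nude against spheroid), 1 to 0 (F1 against spheroid), 1 to 0 (F1 against nude), 0 to 1 in each liver pool comparison with spheroids and 1 to 0 in F1 against nude pools. Of all genes, the block called 2737 of 7640, 902 of 6949 and 887 of 6731 in these 10-cell comparisons. In the pools it called 2927 of 7278 (nude against spheroid), 1837 of 6769 (F1 against spheroid) and 179 of 5101 (F1 against nude). On the same numbered samples without the block the member counts were 1 (nude against spheroid pools) and 0 (F1 against nude pools), where 1813 of 7278 and 415 of 5101 genes were called. Members called without a filter on low counts were 4, 3 and 2 (nude against spheroid, F1 against nude and F1 against spheroid), 4 in RPC, and 1, 3 and 6 in the nude, F1 and F1 against nude pool comparisons. Of all genes, 8431 of 20050, 6294 of 19872, 5072 of 19000 and, in RPC, 6115 of 19396 were then called. In the pools, 7888 of 20053, 5224 of 18440 and 5857 of 19852 genes were called. In nude against spheroid the member count was 2 with limma-trend or a 10 CPM minimum and 0 with the hepatocyte score. All-gene calls were 3571 of 7834, 3221 of 8215 and 1066 of 7834. In F1 against spheroid the member count was 2 with DESeq2 or voom, and 0 with either cell score, with low Rpl19-ps11 only and against either spheroid batch. All-gene calls were 1709 (DESeq2), 1743 (voom), 671 (hepatocyte score) and 659 (leukocyte score) of 7309. They were 379 of 10381 with low Rpl19-ps11, 174 of 8897 against spheroids with spike-in and 676 of 7861 against those without. In F1 against nude the member count was 0 with the leukocyte score and with low Rpl19-ps11 only, and RPC had 1 against spheroids without spike-in. All-gene calls were 1306 of 7064, 223 of 10754 and 1614 of 8755. In pools against spheroids, DESeq2 called 2 members and limma-trend 4 in each comparison, and limma-trend called 0 in F1 against nude pools. In nude pools DESeq2 called 3014 and limma-trend 4754 of all 8010 genes, and in F1 pools 2048 and 3980 of 7249. In F1 against nude pools limma-trend called 1050 of 6010 genes. By detection, nude against spheroid had 0 without thinning, F1 against spheroid 2 with another seed and 1 without thinning, and F1 against nude 1 with another seed or a minimum of 2 counts. In the same order, all-gene calls were 2380 of 16708, 577 of 14211, 745 of 15939, 882 of 15111 and 887 of 13594. The cause was not tested. Leaving out single libraries and fitting the shared-number libraries without a block were chosen after seeing the data. Tap1, Tap2, Psmb9 and Nlrc5 did not pass the main low-count filter between 10-cell groups. For Tap2, Psmb9 and Nlrc5, edgeR tests were made only without it, from few captures with counts. Tap1, with a spheroid mean of 24.4 CPM, was also tested against spheroids at the 10 CPM minimum.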
